A study of Mus musculus with 35 samples.

Results

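The primary tumors of day 14 were 5 of the 35 RNA-sequencing libraries of the series, 3 labelled Smad4 on and 2 labelled Smad4 off, and were taken by the organ, day and *Smad4* status in their labels. The study asked what the tumor suppressor SMAD4 does to transcription in established pancreatic tumors and in metastases of the liver and lungs. All 5 libraries came from KC-shSmad4 cells, mouse pancreatic ductal adenocarcinoma cells with *Ptf1a*-Cre, an rtTA3 and mKate2 allele and a doxycycline-inducible hairpin against *Smad4*. Per the study's methods, the cells were injected into the pancreas of female *Foxn1* nu nude mice of 6 to 8 weeks of age that were kept on doxycycline, and mKate2-positive cells were later sorted from the tumor. Doxycycline keeps the hairpin expressed and its withdrawal is meant to restore *Smad4*, so tumors taken 14 days after withdrawal stand against tumors of mice kept on the drug, and effects of doxycycline and of *Smad4* cannot be told apart. The labels do not say which KC-shSmad4 line or which hairpin was used. Nude mice lack most T cells. Each library was labelled with a mouse number, from 1 to 3 in the group labelled on and 1 or 2 in the group labelled off, and p-values measure the spread between these mice.

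SMAD4 is the common partner of the receptor-activated SMAD proteins and carries signals of TGFβ, activins and BMPs to the genome. In pancreatic epithelium TGFβ signaling is known for cell-cycle arrest, for epithelial-to-mesenchymal transition (EMT) and for the deposition of extracellular matrix, and *SMAD4* is lost in a large share of human pancreatic ductal adenocarcinomas. The comparison of labelled on with labelled off was therefore read by the roles of genes: SMAD proteins, TGFβ targets, EMT factors, matrix, epithelial and gastric genes, and other signaling pathways.

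*Smad4*, the targeted gene (ENSMUSG00000024515; chr18:73639009-73703780, minus strand, GRCm38), went against the labels. It was measured at 100 and 110 CPM (counts per 1000000 of the library, scaled by TMM, the trimmed mean of M values) in the libraries labelled off (mice 1 and 2) and at 19.5, 22.6 and 21.9 CPM in those labelled on (mice 1, 2 and 3). The level was lower in each library labelled on than in either labelled off, with a log2 fold change of -2.31 ± 0.10 (SE) and an adjusted p of 5.4e-05 (edgeR's quasi-likelihood test, Benjamini-Hochberg). Each direction below is given as labelled on against labelled off, which is also low against high *Smad4* mRNA, and no library was moved to the other group. Whether on and off name the state of *Smad4* or that of the hairpin, or were exchanged, could not be settled here, so which group was off doxycycline was not determined, and no direction below can be read as an effect of restoring *Smad4*. By the same contrast *Smad4* differed by a log2 fold change of -2.28 in primary tumors of day 7 (adjusted p = 0.00325) and, in metastases of day 14, -2.63 in the lungs (adjusted p = 0.000119) and -2.93 in the liver, where it did not pass (adjusted p = 0.0625).

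Libraries labelled off held 28557488 and 32195795 counts and those labelled on 12200163 to 14255679, so depth differed with the label, and a floor of 3 counts corresponds to 0.0932 to 0.105 CPM in the former and 0.21 to 0.246 CPM in the latter. Across genes, on log2 CPM, libraries of the same label correlated at 0.980 to 0.993 and libraries of different labels at 0.969 to 0.975. Ductal and epithelial markers were present in all 5, with the ductal keratin *Krt19* at 1038 and 1003 CPM in those labelled off and 2002, 1182 and 1309 CPM in those labelled on, as were mesenchymal genes such as *Vim* at 5897 and 5308 against 3872, 3328 and 3405 CPM. The 10 ductal markers together summed to 17000 and 15700 CPM in labelled off and to 14700 to 18600 CPM in labelled on, so that the groups overlapped. Such sums follow their most abundant members. Of the 10, 7 had a positive log2 fold change, with a median of 0.48, and 1 was called, *Cftr*, which was higher. Markers of other cells were present too, as the plot of marker sums shows. The 10 fibroblast markers summed to 8550 to 8920 CPM in labelled off and 6130 to 12800 CPM in labelled on, highest in mouse 3 labelled on, where *Pdgfra* reached 216 CPM against 39.8 to 113 CPM in the other libraries and *Dpt* 360 CPM against 93.8 to 183 CPM. The same library held the highest level of *Xist*, a transcript of female cells, at 30.5 CPM against 7.01 to 15.3 CPM, and of *Cyp11a1*, the side-chain cleavage enzyme of steroid synthesis, at 50.6 CPM against 0.097 to 15.2 CPM. By the study's account the cell lines came from tumors of male mice, whereas the hosts were female. *Xist* and *Cyp11a1* were singled out after their values were seen. Acinar markers summed to 1280 and 4470 CPM in labelled off and to 2150 to 2810 CPM in labelled on, so that both extremes lay in labelled off. Erythroid markers summed to 44.2 to 83.9 CPM in labelled on and 14.6 and 41.2 CPM in labelled off, and adipocyte and mesothelial markers to 251 to 340 against 187 and 192 CPM, with 0 members of either list called. Endothelial markers summed to 177 to 283 CPM against 284 and 311 CPM and macrophage markers to 139 to 215 CPM against 108 and 216 CPM. *Cd3e*, which defines T cells, and *Lep* were at 0 in all 5 libraries. The part of these cells in the results below was not tested, and in sorted bulk RNA fewer cells of a type and less RNA per cell cannot be told apart.

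**Figure D1:**
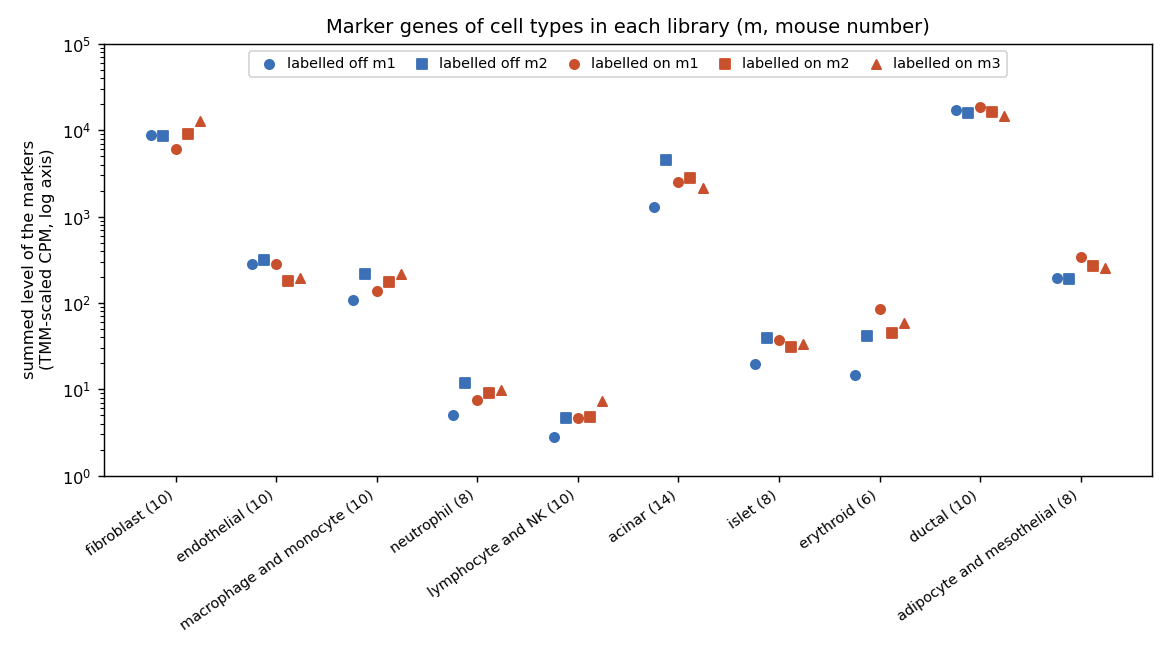
Summed level of the marker genes of 10 cell types in each of the 5 primary tumor libraries of day 14, in TMM-scaled CPM on a log axis, with the number of markers in parentheses and the mouse number as m. Acinar markers are lowest and highest in the 2 libraries labelled off, and fibroblast markers are highest in mouse 3 labelled on.

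Of 14234 genes tested, 661 (4.64%) differed by more than 2-fold with an adjusted p under 0.05, here termed called, of which 482 (3.39%) were higher and 179 (1.26%) lower in the libraries labelled on. By adjusted p alone the numbers were 940 (6.6%) and 897 (6.3%), or 12.9% of genes, so that the excess of higher over lower genes was smaller without the fold threshold. For each of the 661 called genes, no library labelled on overlapped one labelled off, which was so for 47.3% of all genes tested, 24% with labelled on higher and 23.3% with it lower. The biological coefficient of variation was 0.142. Thinning the libraries labelled off to the depth of those labelled on gave 405 higher and 166 lower, whereas a fit that shares 1 estimate of the spread with all groups of the series called 15 and, lower, *Smad4* alone. Among the 115 called genes chosen for naming other than *Smad4*, 50 kept the call without any 1 library, 58 lost it without mouse 1 labelled off and 54 without mouse 2 labelled off, which leave 1 library in that group. The plot of mean level against difference shows the called genes over the whole range of expression.

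**Figure D2:**
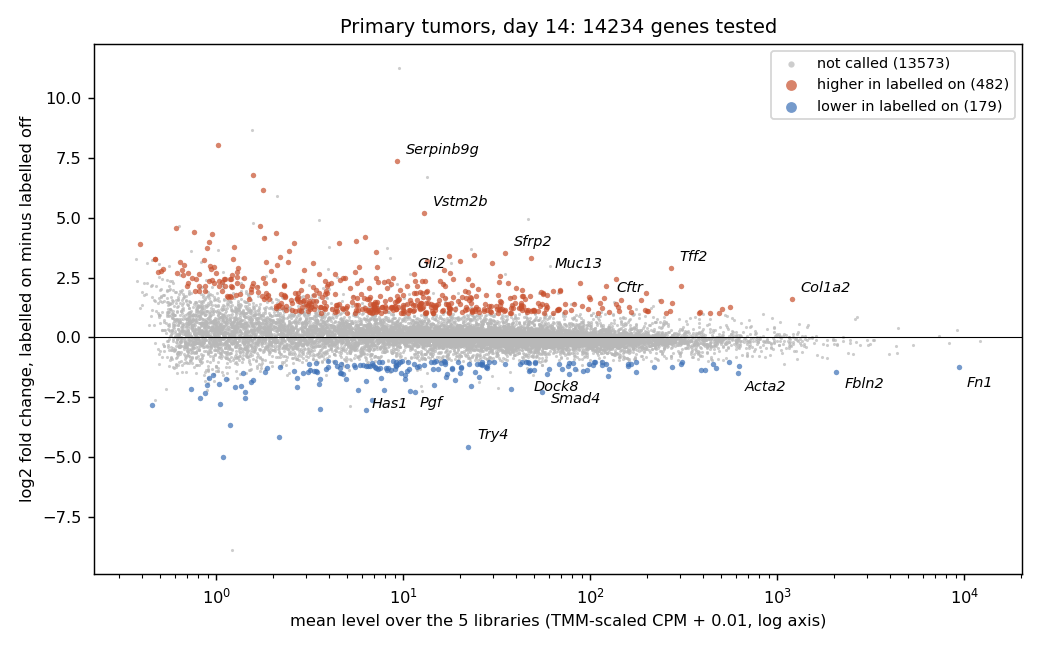
Log2 fold change of labelled on minus labelled off against the mean level over the 5 libraries (TMM-scaled CPM on a log axis) for the 14234 genes tested, with the 482 called higher in red and the 179 called lower in blue. Of the genes marked by name, *Fn1* and *Fbln2* are the most abundant that were lower and *Col1a2* and *Tff2* the most abundant that were higher.

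The genes with the lowest adjusted p among those higher in labelled on included a Wnt modulator, a trefoil peptide and an ion channel. *Sfrp2*, a secreted modulator of Wnt ligands (ENSMUSG00000027996; chr3:83766321-83774316, plus strand), was at 4.43 and 5.07 CPM in the libraries labelled off against 48.9, 54.3 and 61.2 CPM in those labelled on (log2 fold change 3.52 ± 0.14, adjusted p = 5.4e-05). *Tff2*, the trefoil peptide of gastric mucous neck cells (ENSMUSG00000024028; chr17:31141049-31144282, minus strand), was at 54.6 and 54.8 CPM in the libraries labelled off against 364, 440 and 429 CPM in those labelled on (log2 fold change 2.91 ± 0.12, adjusted p = 5.4e-05). *Cftr*, the chloride and bicarbonate channel of ductal cells (ENSMUSG00000041301; chr6:18170687-18322768, plus strand), was at 37.8 and 41.8 against 163, 178 and 184 CPM (log2 fold change 2.14 ± 0.10, adjusted p = 7.74e-05). In all 3 the spread within a group was small beside the gap between groups, which follows from their choice by low adjusted p and groups apart. The calls of all 3 held without any 1 library.

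*Wnt4*, a Wnt ligand, was at 7.32 and 9.46 against 43.6, 52.9 and 51.9 CPM (log2 fold change 2.56 ± 0.15, adjusted p = 0.000246), and *Slc29a3*, a nucleoside transporter of lysosomes, at 22.5 and 22.1 against 72.8, 76.6 and 86.3 CPM (log2 fold change 1.82 ± 0.10, adjusted p = 0.000246). *Fermt1*, the epithelial integrin activator kindlin-1, was at 48 and 47.6 against 120, 119 and 115 CPM, and *Pax9*, a transcription factor of the foregut, at 20.4 and 19.6 against 73.8, 62.1 and 63.2 CPM. By the same rule of choice these groups were again apart, although *Fermt1* was higher by no more than 1.30 ± 0.078 on the log2 scale. *Vstm2b*, an immunoglobulin-domain membrane protein, was low in labelled off at 0.622 and 0.516 CPM and at 15.9, 20.4 and 26.8 CPM in labelled on (log2 fold change 5.20 ± 0.31, adjusted p = 0.000246). The others of this rank were *Smim6*, *Sh2d4a*, *Gstm5* and *Frmd4b*, with log2 fold changes of 2.08, 1.67, 1.85 and 1.48. *Gstm5* belongs to a family of close glutathione S-transferase genes among which short reads can be divided.

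The genes lower in labelled on with the lowest adjusted p after *Smad4* included an exchange factor, a matrix protein and a secreted factor. *Dock8*, an exchange factor for CDC42 (ENSMUSG00000052085; chr19:24999529-25202432, plus strand), was at 74.1 and 76.4 CPM in the libraries labelled off against 29, 29.5 and 30.1 CPM in those labelled on (log2 fold change -1.35 ± 0.081, adjusted p = 0.000246). *Fbln2*, the matrix protein fibulin-2 (ENSMUSG00000064080; chr6:91212455-91272540, plus strand), was at 3315 and 3277 CPM in the libraries labelled off against 1098, 1289 and 1274 CPM in those labelled on (log2 fold change -1.43 ± 0.10, adjusted p = 0.000383). *Angptl2*, a secreted angiopoietin-like protein (ENSMUSG00000004105; chr2:33216069-33247717, plus strand), was at 359 and 315 against 143, 142 and 139 CPM (log2 fold change -1.25 ± 0.087, adjusted p = 0.000383). Chosen by the same rule, each differed by more than the spread of either group.

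*Wnt5a*, a ligand of non-canonical Wnt signaling, was at 112 and 116 against 55.1, 45.5 and 49.2 CPM (log2 fold change -1.19 ± 0.10, adjusted p = 0.000812), opposite in direction to *Wnt4*. *Mcam*, the adhesion molecule CD146, was at 169 and 138 against 69.3, 69.4 and 70.5 CPM, and *Lsp1*, an actin-binding protein, at 653 and 590 against 203, 236 and 275 CPM. *Prss12*, a secreted serine protease, had a log2 fold change of -2.03 ± 0.17, from 40.2 and 44.3 to 12.5, 7.92 and 10.6 CPM. *Pxdc1*, *Ier5l*, *Tgfb1i1* and *Loxl2* were lower by log2 fold changes of -1.03, -1.03, -1.39 and -1.10. The calls of *Mcam* and *Pxdc1* were lost without mouse 1 labelled off, whereas those of the others in these paragraphs held without any 1 library.

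The 250 bases before the start of 2 genes higher and 2 lower are shown as the sequence next to the RefSeq start of the genes of lowest adjusted p for which a window was used here. Capitals mark the motifs searched on both strands, which were the SMAD palindrome GTCTAGAC, the SMAD box CAGACA, the SMAD GC motif GGCGCC, the AP-1 site TGANTCA and the E-box CAGGTG of SNAI and ZEB factors. The sequences (RefSeq, GRCm38.p6, all on the plus strand) are chr3:83766071-83766320 for *Sfrp2*, chr6:18170437-18170686 for *Cftr*, chr19:24999279-24999528 for *Dock8* and chr2:33215711-33215960 for *Angptl2*, written 5′ to 3′.
Sfrp2: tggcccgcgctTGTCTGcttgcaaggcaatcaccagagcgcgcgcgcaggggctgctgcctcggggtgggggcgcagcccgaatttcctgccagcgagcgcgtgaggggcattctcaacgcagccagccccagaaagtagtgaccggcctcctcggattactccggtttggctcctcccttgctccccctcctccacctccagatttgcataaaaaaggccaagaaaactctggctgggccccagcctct
Cftr: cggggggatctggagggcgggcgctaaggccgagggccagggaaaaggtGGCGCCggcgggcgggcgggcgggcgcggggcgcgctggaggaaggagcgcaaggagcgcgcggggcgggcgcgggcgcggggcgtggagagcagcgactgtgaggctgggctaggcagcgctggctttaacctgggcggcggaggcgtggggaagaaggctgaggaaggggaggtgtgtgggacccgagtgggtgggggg
Dock8: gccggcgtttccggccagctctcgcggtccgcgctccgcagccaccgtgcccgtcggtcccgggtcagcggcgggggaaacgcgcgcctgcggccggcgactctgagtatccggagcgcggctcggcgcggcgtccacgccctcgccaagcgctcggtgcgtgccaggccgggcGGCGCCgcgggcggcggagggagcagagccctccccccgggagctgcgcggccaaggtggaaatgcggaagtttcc
Angptl2: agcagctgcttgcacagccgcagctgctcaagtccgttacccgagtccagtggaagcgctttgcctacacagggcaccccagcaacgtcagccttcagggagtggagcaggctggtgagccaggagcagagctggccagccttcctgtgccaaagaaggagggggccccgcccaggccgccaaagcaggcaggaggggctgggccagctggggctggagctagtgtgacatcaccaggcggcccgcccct
*Sfrp2* holds 1 SMAD box, *Cftr* and *Dock8* 1 GC motif each, and the window of *Angptl2* none of the 5 motifs. Over all genes tested with such a window, 16.47% hold CAGACA, 19.01% GGCGCC, 6.16% TGANTCA, 18.66% CAGGTG and 0.25% GTCTAGAC. A comparison of called genes with these shares is void, since a window was found for only 69.3% of the genes called higher and 68.2% of those called lower.

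Gastric, mucin and goblet genes were, of the lists compared, the one with the most calls. Of 32 members tested, 11 were higher and 0 lower, against 3.39% and 1.26% of all genes, and the median log2 fold change was 1.28 against 0.016 over all genes tested. The counts of every list below stand beside the same 3.39% and 1.26%. All 3 trefoil peptides were higher: beside *Tff2*, *Tff3* of goblet cells was at 1.83 and 2.68 CPM in the libraries labelled off against 16.2, 25.2 and 21 CPM in those labelled on (log2 fold change 3.19 ± 0.27, adjusted p = 0.000907) and *Tff1* at 0.329 and 0.29 against 1.99, 4.43 and 2.07 CPM. *Tff1* shares 31.4% of its exonic bases with another gene on the opposite strand, so its reads may be divided. Per kilobase of transcript, *Tff2* had a mean level of 704 CPM in labelled on, against 42.2 for *Tff3* and 5.92 for *Tff1*. *Muc13*, a membrane mucin, was at 34.4 and 40 against 243, 186 and 182 CPM (log2 fold change 2.46 ± 0.16, adjusted p = 0.000452), and *Muc3*, another membrane mucin, at 1.1 and 1.19 against 5.63, 10.4 and 10.5 CPM. The secreted mucin *Muc5b* was at 0.476 and 0.452 against 13.3, 2.95 and 2.94 CPM and did not pass (adjusted p = 0.0605) with mouse 1 labelled on far above the others.

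*Pgc*, the gastric protease precursor progastricsin, was at 0.256 and 0.355 against 4.12, 3.73 and 3.74 CPM (log2 fold change 3.62 ± 0.37, adjusted p = 0.00139). *Vsig1*, a junction protein of gastric epithelium, was at 21.6 and 19.7 against 91.7, 63.5 and 77.1 CPM, and *Spdef*, a transcription factor of goblet cells, at 1.65 and 0.839 against 5.22, 7.69 and 5.01 CPM. *Lgals2*, a galectin of gastrointestinal epithelium, was at 88.5 and 84.9 against 338, 187 and 236 CPM, *Reg3b*, an antibacterial lectin, at 215 and 257 against 494, 508 and 431 CPM, and *Gkn3*, a gastrokine, at 2.74 and 1.13 against 6.94, 16.9 and 8.19 CPM. *Agr2*, a disulfide isomerase of mucous cells, had a log2 fold change of 4.93 but ranged from 19.1 to 182 CPM within labelled on and did not pass (adjusted p = 0.154). *Tff2*, *Tff3*, *Muc3*, *Muc13*, *Vsig1* and *Pgc* kept their calls without any 1 library. The other 5 lost theirs without 1 or more libraries, and the number of members called ranged from 9 without mouse 1 labelled off to 17 without mouse 1 labelled on.

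Identity genes of the pancreas and foregut, a list that also holds the trefoil peptides, had 4 of 22 members higher and 0 lower, with *Tff1*, *Tff2* and *Tff3* among the 4. *Hnf4a*, a nuclear receptor of gut and liver epithelium, was at 92.9 and 105 against 335, 164 and 175 CPM and *Gata6*, an endoderm factor, at 19.1 and 25.1 against 17.5, 19 and 18.5 CPM, with adjusted p values of 0.123 and 0.261.

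Epithelial genes had 6 of 35 members higher and 0 lower, with a median log2 fold change of 0.64. *Spint2*, an inhibitor of epithelial serine proteases, was at 162 and 152 CPM in the libraries labelled off against 366, 348 and 312 CPM in those labelled on (log2 fold change 1.12 ± 0.10, adjusted p = 0.00094). The splicing regulators *Esrp1* and *Esrp2*, which maintain epithelial isoforms, were at 1.24 and 1.81 against 5.22, 4.04 and 2.78 CPM and at 8.3 and 10.8 against 23.7, 17.8 and 21.2 CPM. *Krt20*, a keratin of gastric and intestinal epithelium, was at 43.8 and 39.5 against 178, 112 and 118 CPM, *Marveld2*, the tight junction protein tricellulin, at 7.83 and 8.1 against 14.8, 20.1 and 15.5 CPM, and *Cdh3*, P-cadherin, at 5.78 and 4.65 against 11.7, 12.7 and 10.8 CPM. *Cdh1*, E-cadherin, was at 336 and 366 against 664, 662 and 654 CPM, below the fold threshold with a log2 fold change of 0.91 ± 0.085 (adjusted p = 0.00116). Of the 6 calls, that of *Spint2* held without any 1 library, and 1 remained in the whole list without mouse 1 labelled off. *Epcam*, an epithelial adhesion molecule, was at 136 and 147 against 137, 221 and 186 CPM and did not pass (adjusted p = 0.293).

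Mesenchymal genes had 0 of 24 members higher, 5 lower and a median log2 fold change of -0.67. *Fn1*, fibronectin (ENSMUSG00000026193; chr1:71585520-71653200, minus strand), was at 13230 and 15610 CPM in the libraries labelled off against 5304, 6340 and 6527 CPM in those labelled on (log2 fold change -1.25 ± 0.12, adjusted p = 0.00135). *Loxl2*, a lysyl oxidase that cross-links collagen, was at 470 and 430 against 188, 219 and 222 CPM (log2 fold change -1.10 ± 0.10, adjusted p = 0.00103). *Acta2*, smooth muscle actin, was at 1068 and 945 against 219, 456 and 391 CPM (log2 fold change -1.50 ± 0.32, adjusted p = 0.0454), *Cnn2*, calponin-2, at 668 and 656 against 237, 343 and 346 CPM, and *Tagln*, transgelin, at 14.3 and 7.78 against 3.23, 5.44 and 5.01 CPM. *Tagln* shares 62.4% of its annotated exonic bases with an antisense gene on the opposite strand, and whether the counting used strand is not given in the sources used here. *Fn1* and *Loxl2* kept their calls without any 1 library, and those of *Acta2*, *Cnn2* and *Tagln* were lost without 1 or more. *Vim*, vimentin, was lower by less than the fold threshold, with a log2 fold change of -0.66 ± 0.10 (adjusted p = 0.00656).

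The EMT transcription factors included 13 tested, of which *Foxc2* was called lower at 5.12 and 7.17 against 2.06, 2.02 and 1.43 CPM (log2 fold change -1.74 ± 0.28, adjusted p = 0.00718). All 13 had a negative log2 fold change, from -1.74 to -0.16, with a median of -0.53, while 52.2% of all genes tested had a positive one. Other lists leaned to 1 side too, with 2 of 24 mesenchymal and 30 of 35 epithelial genes positive. The lists were chosen with earlier results of these data known, and members share the same 5 libraries. These signs are therefore a description and not a test. The zinc finger repressors *Snai1* and *Zeb1* were at 21.7 and 21.6 against 7.14, 15.9 and 13.8 CPM and at 123 and 129 against 73.4, 97 and 93.7 CPM, with log2 fold changes of -0.82 (adjusted p = 0.145) and -0.52 (adjusted p = 0.0305). The call of *Foxc2* was lost without mouse 2 labelled off. *Twist1* had a log2 fold change of -0.16 ± 0.10 (adjusted p = 0.329).

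**Figure D3:**
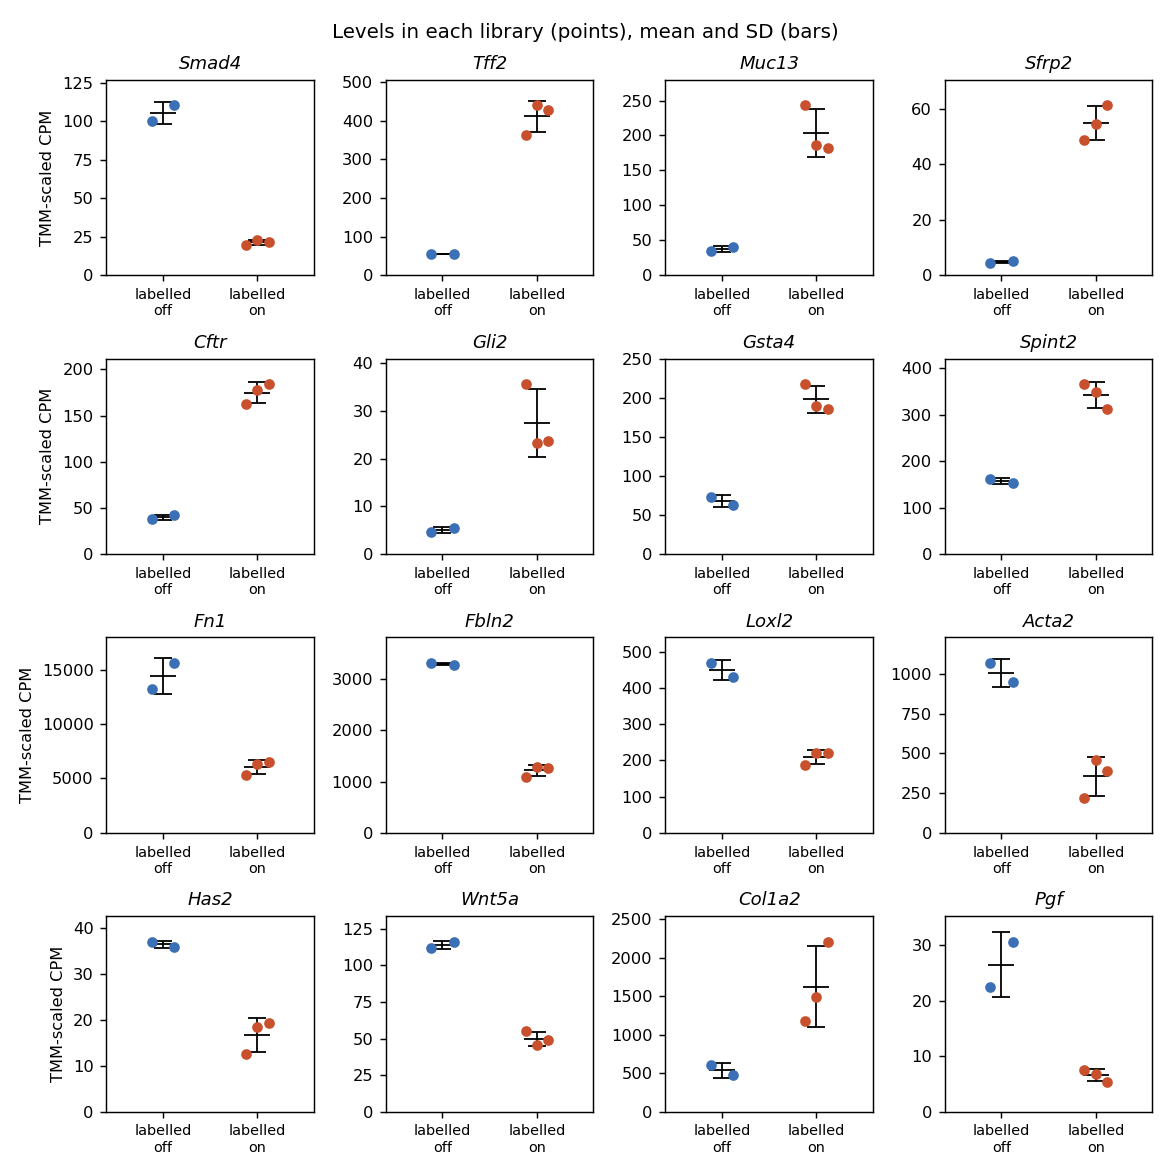
TMM-scaled CPM of 16 genes in the 2 libraries labelled off (blue) and the 3 labelled on (red), 1 point per library, with the mean and SD as bars and a separate axis from 0 for each gene. In every panel the 2 groups are apart, as for every called gene, and *Col1a2* ranges from 1179 to 2208 CPM among the libraries labelled on.

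In the TGFβ pathway, *Smad4* was the only one of 7 SMAD genes tested to be called. *Smad7*, the inhibitory SMAD that TGFβ induces, was at 131 and 151 against 94.9, 110 and 96.8 CPM with a log2 fold change of -0.49 ± 0.10 (adjusted p = 0.0186), and *Smad6*, the inhibitory SMAD of BMP signaling, at 9.11 and 10.5 against 15.1, 16.9 and 15.7 CPM with 0.70 ± 0.15 (adjusted p = 0.0207). Both passed the test but not the fold threshold, in opposite directions. *Smad3*, which binds DNA with SMAD4, had a log2 fold change of 0.074 ± 0.13.

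TGFβ target and feedback genes had 0 of 41 higher and 7 lower, with a median log2 fold change of -0.41. *Tgfb1i1*, the focal adhesion protein HIC-5, was at 137 and 153 CPM in the libraries labelled off against 46.7, 62.1 and 57.5 CPM in those labelled on (log2 fold change -1.39 ± 0.12, adjusted p = 0.00101). *Col7a1*, the anchoring fibril collagen, was at 296 and 265 against 88.1, 99.4 and 124 CPM (log2 fold change -1.43 ± 0.14, adjusted p = 0.0017). *Bambi*, a pseudoreceptor that blocks TGFβ receptors, was at 13.9 and 12 against 4.46, 5.28 and 5.17 CPM, and *Fstl3*, a follistatin-like antagonist of activin, at 15.5 and 18.1 against 6.53, 6.68 and 7 CPM. *Ltbp2*, a latent TGFβ-binding protein, was at 912 and 984 against 305, 468 and 454 CPM, *Wnt9a* at 161 and 174 against 63.7, 89.1 and 90.6 CPM, and *Has2*, a hyaluronan synthase, at 37.1 and 35.9 against 12.5, 18.5 and 19.2 CPM. *Col7a1*, *Fstl3* and *Tgfb1i1* kept their calls without any 1 library, and the other 4 lost theirs without mouse 1 labelled off. *Fstl3* shares 47.3% of its exonic bases with *Prss57* on the opposite strand.

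Among ligands, receptors and antagonists, 2 of 37 were higher and 4 lower. *Bmp1*, the protease that matures procollagens and releases TGFβ-family ligands, was at 707 and 741 against 248, 314 and 344 CPM (log2 fold change -1.26 ± 0.13, adjusted p = 0.00181). *Inhbb*, the activin B subunit, was at 105 and 95.5 against 35.9, 45.7 and 57 CPM, lower as *Fstl3* and *Ltbp2* were. The 2 higher genes were the ligands *Bmp4*, at 4.06 and 4.33 against 8.72, 6.99 and 9.94 CPM (log2 fold change 1.03 ± 0.22, adjusted p = 0.0207), and *Bmp3*, at 0.183 and 0.549 against 1.37, 1.86 and 3.02 CPM (log2 fold change 2.46 ± 0.59, adjusted p = 0.0322). Of these, *Bmp1* and *Fstl3* kept the call without any 1 library, and 0 members were called higher without mouse 1 labelled off.

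The study reports a set of fibrogenic genes as induced by *Smad4* restoration in liver and lung metastases, with a delay in the lungs. Of these genes, *Has2* alone was called in the primary tumor, lower in labelled on, which had less *Smad4* mRNA (log2 fold change -1.13 ± 0.18, adjusted p = 0.00699). The others given here had negative log2 fold changes too: -0.90 for *Itga5*, the fibronectin receptor subunit (adjusted p = 0.00314), -0.85 for the matricellular *Wisp1* (0.0135), -0.14 for *Ccbe1* (0.761), -0.13 for *Col6a1* (0.779) and -0.12 for the cytokine *Il11* (0.923). *Itga5* was at 225 and 216 CPM in the libraries labelled off against 100, 126 and 129 CPM in those labelled on. Its groups did not overlap, with labelled on lower, as for 23.3% of all genes tested. *Il11*, *Col6a1* and *Ccbe1* overlapped between groups. The call of *Has2* was lost without either library labelled off or without mouse 1 labelled on, which had its lowest level.

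Extracellular matrix genes were divided by class. Of 25 collagens tested, 4 were higher and 1 lower. *Col1a2*, a chain of the main fibrillar collagen, was at 610 and 473 CPM in the libraries labelled off against 1179, 1485 and 2208 CPM in those labelled on (log2 fold change 1.58 ± 0.31, adjusted p = 0.0334), and was highest in mouse 3 labelled on, which also held the most *Pdgfra* and *Dpt*. *Col1a1*, its partner chain, was at 3430 and 3498 against 1849, 3168 and 3348 CPM and *Col3a1* at 7357 and 7071 against 4922, 7058 and 10250 CPM, with log2 fold changes of -0.31 ± 0.26 and 0.038 ± 0.31 and no call. Without mouse 3 labelled on *Col1a2* kept its call, which was lost without mouse 2 labelled on and without either library labelled off.

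The basement membrane chains *Col4a3* and *Col4a4* were at 0.293 and 0.646 against 2.95, 1.71 and 2.23 CPM and at 0.476 and 0.387 against 2.95, 2.95 and 2.94 CPM, and *Col8a2*, a short-chain collagen, at 2.31 and 3.23 against 11.4, 22.5 and 17.7 CPM (log2 fold change 2.63 ± 0.33, adjusted p = 0.00369). Of the 4 higher collagens, *Col4a4* kept its call without any 1 library. Glycoproteins and proteoglycans had 4 of 48 members higher, *Nid2*, *Fmod*, *Fbln1* and *Wisp2*, and 2 lower, *Fn1* and *Fbln2*. *Nid2*, a nidogen of basement membranes, was at 4.9 and 5.26 against 14.7, 26.1 and 30.8 CPM (log2 fold change 2.23 ± 0.33, adjusted p = 0.00886), *Fmod*, the collagen-binding fibromodulin, at 40.9 and 41.2 against 84.4, 146 and 95.4 CPM, *Fbln1*, fibulin-1, at 30.9 and 43.1 against 65.7, 117 and 109 CPM, and *Wisp2*, a CCN family protein, at 16.1 and 23.4 against 35.2, 58.3 and 58.1 CPM. Thus fibulin-1 and fibulin-2 differed in opposite directions. Without mouse 1 labelled off, 0 of the glycoproteins were called higher, and the calls of *Fn1* and *Fbln2* held without any 1 library.

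*Itga8* and *Itga11*, integrin subunits of mesenchymal cells, and *Itga1*, a collagen receptor subunit, were the 3 of 29 laminin and integrin genes that were higher, and 0 were lower. They were at 0.366 and 0.452 against 1.79, 5.28 and 4.22 CPM, at 5.93 and 8.84 against 18.8, 28.3 and 21.8 CPM and at 23.9 and 23.6 against 102, 56.3 and 86.5 CPM, and without mouse 1 labelled off none was called. The summed fibroblast markers overlapped between the labels, at 8550 to 8920 CPM in labelled off and 6130 to 12800 CPM in labelled on, and their part in these calls was not tested. Of the 10 fibroblast markers, 7 had a positive log2 fold change, with a median of 0.20 over the list, and 1 was called, *Pi16*, which was lower at 34.9 and 30.4 against 9.62, 12 and 13.7 CPM (log2 fold change -1.47 ± 0.16, adjusted p = 0.0017).

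Matrix enzymes and inhibitors had 0 of 46 higher and 6 lower. *Has1*, a hyaluronan synthase like *Has2*, was at 20.2 and 23.8 CPM in the libraries labelled off against 2.68, 4.27 and 6.84 CPM in those labelled on (log2 fold change -2.27 ± 0.33, adjusted p = 0.00823). *Loxl3*, a relative of *Loxl2*, was at 442 and 393 against 132, 198 and 195 CPM, the matrix metalloproteinase *Mmp10* at 9.44 and 17.9 against 2.47, 2.88 and 1.27 CPM, and the protease *Adamts12* at 23.2 and 25.9 against 10, 12.9 and 11 CPM. Per kilobase of transcript, *Loxl2* had a level of 83.2 CPM in labelled off and 38.8 CPM in labelled on, and *Has2* of 8.61 and 3.95 CPM. In each of these genes every library labelled on was below both labelled off, as in all 179 genes called lower. Without mouse 2 labelled off only *Loxl2* of these 6 was called.

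Of 50 Hedgehog, Wnt and Notch genes, 7 were higher and 2 lower. *Gli2*, a transcription factor of Hedgehog signaling (ENSMUSG00000048402; chr1:118834132-119053619, minus strand), was at 4.57 and 5.46 CPM in the libraries labelled off against 35.6, 23.2 and 23.6 CPM in those labelled on (log2 fold change 2.45 ± 0.23, adjusted p = 0.00139), and its target *Gli1* at 1.98 and 2.52 against 3.92, 4.66 and 5.09 CPM (log2 fold change 1.01 ± 0.27, adjusted p = 0.0449). *Gli2* kept the call without any 1 library and *Gli1* did not. Of the Wnt ligands, *Wnt4* and *Wnt5b* were higher, the latter at 2.49 and 3.16 against 10.2, 11.6 and 13.6 CPM (log2 fold change 2.05 ± 0.22, adjusted p = 0.0017), and *Wnt5a* and *Wnt9a* lower. Per kilobase of transcript, *Wnt4* went from a level of 2 to 11.8 CPM and *Wnt5a* from 14.6 to 6.38 CPM. *Rnf43*, a ubiquitin ligase that removes Wnt receptors, was at 6.7 and 6.49 against 16.8, 15.9 and 14.9 CPM (log2 fold change 1.27 ± 0.15, adjusted p = 0.00214), and *Sp5*, a Wnt-induced transcription factor, at 0.878 and 0.807 against 3.23, 2.41 and 2.15 CPM. The median of the list, 0.041, was close to the 0.016 of all genes.

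Genes of oxidative stress and xenobiotic metabolism had 7 of 22 higher and 0 lower, with a median log2 fold change of 0.92. *Gsta4*, a glutathione S-transferase that conjugates lipid aldehydes, was at 72.9 and 62.6 CPM in the libraries labelled off against 218, 190 and 186 CPM in those labelled on (log2 fold change 1.55 ± 0.11, adjusted p = 0.000452). *Gsta3* was at 9.95 and 12.3 against 64.2, 52.1 and 42.8 CPM (log2 fold change 2.25 ± 0.20, adjusted p = 0.00129), and *Gclc*, the catalytic subunit of glutathione synthesis, at 54.4 and 55.7 against 180, 120 and 153 CPM (log2 fold change 1.46 ± 0.17, adjusted p = 0.00303). Mouse 1 labelled on was the highest for all 3. The cytochrome *Cyp2s1*, the epoxide hydrolase *Ephx1*, the retinal dehydrogenase *Aldh1a1* and the metallothionein *Mt2* were higher by log2 fold changes of 1.45, 1.06, 1.67 and 1.98. *Mt2* shares 73.5% of its exonic bases with an antisense gene, and the *Gsta* genes are close paralogs among which reads can be divided. *Gsta3*, *Gsta4* and *Cyp2s1* kept their calls without any 1 library, and the number called was 3 without mouse 1 labelled off.

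Transporters had 3 of 22 higher, *Cftr*, *Slc29a3* and the iron exporter *Slc40a1*, the last at 13.7 and 16.5 against 42.5, 35.6 and 35.6 CPM (log2 fold change 1.33 ± 0.14, adjusted p = 0.00139), and each held without any 1 library. Of 27 genes of RAS-MAPK output and the EGF family, *Erbb3*, a neuregulin receptor, was the only one called, at 32 and 33.8 against 80.6, 72 and 70.2 CPM (log2 fold change 1.17 ± 0.10, adjusted p = 0.000849). That is 3.7% of the list called higher, near the 3.39% of all genes.

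Of 42 interferon-stimulated genes, 5 were called higher and 0 lower. The log2 fold change was positive in 39 of them, or 92.9% against 52.2% of all genes tested, with a median of 0.59. Here too the list was chosen with earlier results known, so the signs are a description and not a test. *Oas2*, an oligoadenylate synthetase that senses viral RNA, was at 6.4 and 8.52 CPM in the libraries labelled off against 16.4, 18.5 and 21.9 CPM in those labelled on (log2 fold change 1.34 ± 0.19, adjusted p = 0.00463). *Rsad2*, the antiviral protein viperin, was at 1.61 and 1.58 against 3.78, 4.97 and 4.06 CPM, *Usp18*, which restrains interferon signaling, at 4.54 and 3.74 against 13.3, 7.07 and 9.86 CPM, and *Oas1a* at 5.41 and 5.42 against 11, 16.2 and 11.7 CPM. *Oas1g* was at 1.65 and 1.55 against 2.88, 4.12 and 5.01 CPM and is a close paralog of *Oas1a*. All 5 calls were lost without mouse 1 labelled off. Antigen presentation genes had 0 of 25 called, against 4.64% of all genes, with a median of 0.26.

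Cytokines and chemokines had 7 of 46 higher and 2 lower. *Cxcl5*, a neutrophil chemokine, was at 10 and 9.04 against 26.7, 68.1 and 48.4 CPM (log2 fold change 2.32 ± 0.44, adjusted p = 0.0354), *Cxcl3*, another, at 1.57 and 1.36 against 2.75, 6.37 and 3.58 CPM and the inflammatory cytokine *Tnf* at 22.5 and 22.4 against 43.5, 75.4 and 48.7 CPM. *Cxcl15*, *Cxcl17* and *Ccl28*, chemokines of mucosal epithelia, were higher by log2 fold changes of 4.16, 1.23 and 2.87, and *Vegfd*, a lymphatic growth factor, by 1.06. *Cxcl15* was at 0.22 and 0.097 against 2.61, 3.81 and 2.23 CPM, and *Ccl28* at 0.183 and 0.194 against 0.893, 2.1 and 1.27 CPM. In labelled off both lay close to the floor of 3 counts, so their folds are uncertain. *Cxcl14* was lower at 76.2 and 82.5 against 34.4, 24.9 and 32.8 CPM (log2 fold change -1.37 ± 0.14, adjusted p = 0.00139), and *Pgf*, placental growth factor, at 22.5 and 30.7 against 7.49, 6.84 and 5.41 CPM (log2 fold change -2.01 ± 0.19, adjusted p = 0.00121). The calls of *Cxcl14*, *Cxcl15* and *Pgf* held without any 1 library, and the number higher ranged from 1 without mouse 1 labelled off to 13 without mouse 1 labelled on. Neutrophil markers summed to 7.42 to 9.7 CPM in labelled on and 5.01 and 11.8 CPM in labelled off, so that the groups overlapped.

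Neuronal and axon guidance genes had 1 of 43 higher and 3 lower, or 2.33% and 6.98% against 3.39% and 1.26% of all genes. *Ncam1*, a neural cell adhesion molecule, was at 178 and 178 against 66.4, 88.7 and 95.1 CPM (log2 fold change -1.09 ± 0.14, adjusted p = 0.00416), *Gad2*, which makes the transmitter GABA, at 16.4 and 17.6 against 4.26, 6.68 and 6.28 CPM (log2 fold change -1.57 ± 0.21, adjusted p = 0.0033), and *Tubb3*, a neuronal tubulin, at 36.5 and 41.3 against 18.2, 20.6 and 15.4 CPM (log2 fold change -1.10 ± 0.14, adjusted p = 0.00261). The receptor *Epha4* was higher at 4.43 and 4.23 against 10.8, 14.4 and 12.3 CPM. Of these, *Ncam1* lost its call without 1 or more libraries and the other 3 kept it.

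The genes with the largest differences at a mean of 5 CPM or more in the higher group often varied within a group. *Serpinb9g*, a serine protease inhibitor of a family of close paralogs, was at 0.0732 and 0.0968 against 5.01, 8.31 and 32.9 CPM (adjusted p = 0.0467), with no more than 3 counts in either library labelled off, so that no fold is given, and was highest in mouse 3 labelled on, as *Cyp11a1* was. *Matn4*, a matrilin of the matrix, was at 0.402 and 0.678 against 5.77, 13.4 and 11 CPM, *Oprd1*, the delta opioid receptor, at 0.805 and 0.29 against 7.49, 8.62 and 10.6 CPM, and *Scube1*, a secreted membrane-associated protein, at 1.17 and 0.71 against 5.43, 16.1 and 12.1 CPM. On the other side *Eya1*, a transcription cofactor, was at 6.4 and 3.62 against 0.55, 0 and 0.239 CPM, *Scn7a*, a sodium channel, at 13 and 13.6 against 0.618, 1.24 and 3.02 CPM, and *Tmem47*, a junction membrane protein, at 11.3 and 3.87 against 1.3, 0.932 and 0.557 CPM. *Try4*, an acinar trypsinogen, was at 18.6 and 85.5 against 1.51, 2.72 and 2.39 CPM (log2 fold change -4.57 ± 0.86, adjusted p = 0.0471). Of the 13 acinar markers tested it was the only one called. Of the 13, 1 had a positive log2 fold change, and the median was -0.23. The acinar sums overlapped, and *Try4* lost its call when any 1 of the 3 libraries labelled on was left out. *Try4* has close paralogs such as *Try5*, at 111 and 288 against 124, 127 and 99.1 CPM.

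Cell-cycle lists held no call at a fold over 2. S-phase genes had 0 of 44 called and G2 and mitosis genes 0 of 52, with medians of -0.083 and -0.092, and CDK inhibitors and other cell-cycle regulators 0 of 28. Of all genes tested, 4.64% were called. The log2 fold change was positive in 13 of 44 S-phase genes and 15 of 52 G2 and mitosis genes, against 52.2% of all genes tested. *E2f8*, a repressor of E2F targets, fell just short of 2-fold at 32.2 and 32.3 against 16.6, 14.2 and 17.7 CPM (log2 fold change -0.996 ± 0.12, adjusted p = 0.00261), and *Ccnd1*, cyclin D1, was at 464 and 435 against 331, 240 and 252 CPM (-0.71 ± 0.14, adjusted p = 0.018). *Cdkn1c*, a CDK inhibitor that the study names and that shares 30.7% of its exonic bases with a gene on the opposite strand, was at 4.46 and 3.87 against 5.63, 5.28 and 5.09 CPM (0.36 ± 0.21, adjusted p = 0.317). *Id1*, a BMP-induced inhibitor of differentiation, was at 39 and 42.2 against 48.3, 56.9 and 54.5 CPM (0.39 ± 0.10, adjusted p = 0.0421).

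The KLF and RUNX transcription factors, several of them named by the study, had 0 of 18 called, against 4.64% of all genes. *Klf4* was at 297 and 348 CPM in the libraries labelled off against 198, 257 and 268 CPM in those labelled on (-0.42 ± 0.14, adjusted p = 0.0997), and *Runx1* at 147 and 169 CPM in the libraries labelled off against 106, 117 and 115 CPM in those labelled on (-0.49 ± 0.093, adjusted p = 0.0134). For both, each library labelled on was below each labelled off, as for 23.3% of all genes tested, and the difference was less than 2-fold. *Klf5*, *Klf6*, *Runx2* and *Runx3* had log2 fold changes of 0.37, -0.20, -0.42 and 0.75.

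Apoptosis regulators had 0 of 27 called, glycolysis and hypoxia genes 0 of 37, cholesterol and fatty acid synthesis genes 0 of 32 and nuclear genes of the respiratory chain 0 of 37. Of all genes, 4.64% were called in either direction. In the same order, 21 of 27, 5 of 37, 12 of 32 and 13 of 37 members had a positive log2 fold change. Of all genes tested 52.2% did. The list medians were 0.10, -0.29, -0.082 and -0.0315, against 0.016 over all genes. These signs are a description and not a test. At an unadjusted p under 0.05, 2072 of all genes tested were higher and 2003 lower in edgeR. p53 targets had 2 of 30 higher, the desmosomal *Perp* at 36.4 and 33.4 against 71.9, 72.5 and 69.2 CPM and *Ephx1* at 76.3 and 75.2 against 210, 132 and 133 CPM, and the unfolded protein and amino acid response 1 of 31, the cysteine-forming enzyme *Cth* at 0.695 and 0.646 against 2.61, 1.4 and 2.07 CPM. The shares called higher were 6.67% and 3.23%, against 3.39% of all genes. Immediate early and stress genes had 0 of 27 higher and 2 lower, the heat-shock genes *Hspa1a* at 192 and 279 against 96.7, 118 and 113 CPM and *Hspa1b* at 521 and 785 against 209, 289 and 259 CPM (log2 fold change -1.37 ± 0.21, adjusted p = 0.0117), which are near-identical copies and share reads. The plot of lists gives every member tested of the lists it shows, and the lists of this paragraph are not among them.

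**Figure D4:**
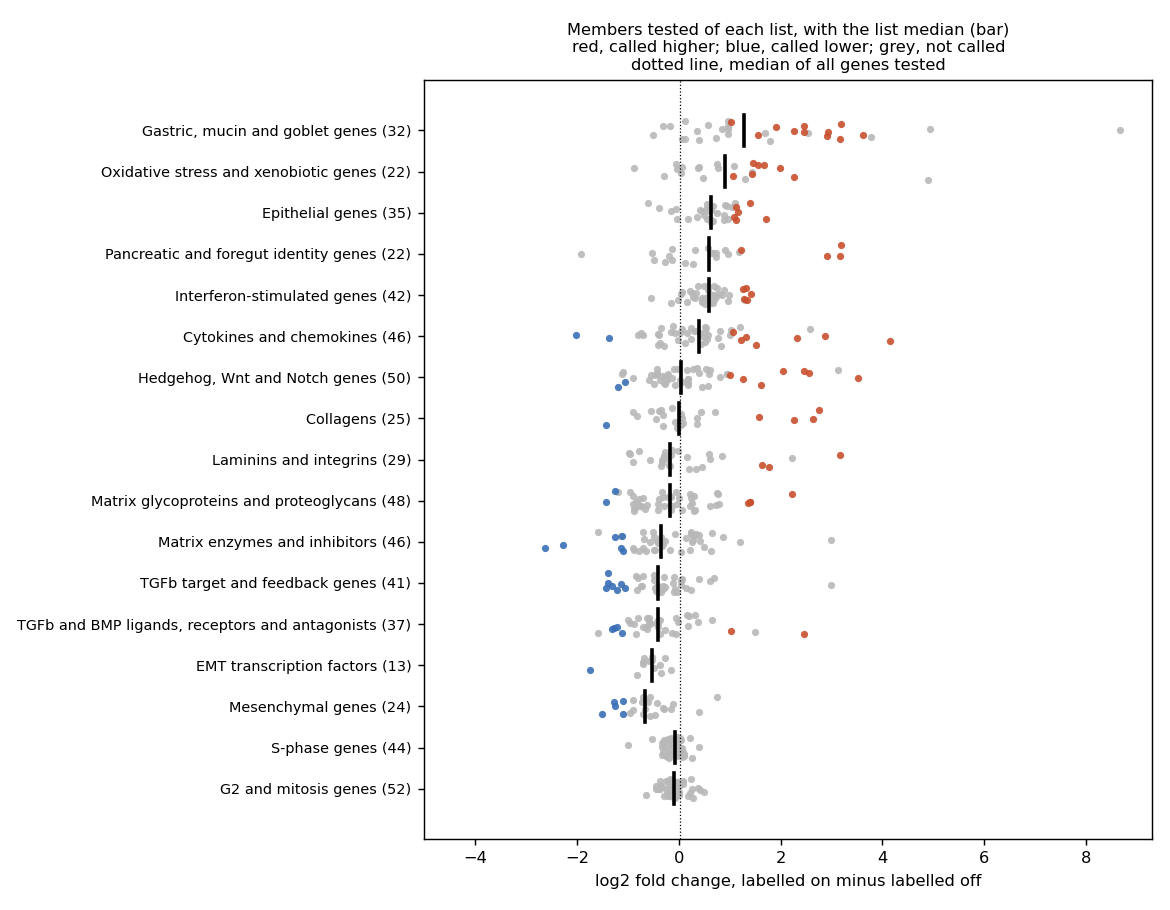
Log2 fold change of labelled on minus labelled off for each member tested of 17 gene lists (number tested in parentheses), with red for called higher, blue for called lower and a black bar for the list median. The gastric list lies farthest to the right, with 11 of 32 called, and the mesenchymal list farthest to the left, with 5 of 24. The medians of S-phase genes and of G2 and mitosis genes, -0.083 and -0.092, lie slightly below the 0.016 of all genes.

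Primary tumors of day 7 were measured in 5 other libraries, 2 labelled on and 3 labelled off, and were compared in a separate fit, in which 138 genes were higher (0.956%) and 54 lower (0.374%). Of the 482 genes higher on day 14, 451 were tested on both days and 431 (95.6%) had a positive log2 fold change on day 7, with 63 (14%) also called. Of the 179 lower, 176 were tested on both and 133 (75.6%) were negative on day 7, with 9 (5.11%) called. Over all genes tested on both days, 63.7% had the same sign. The median log2 fold change of the genes higher on day 14 was 1.45 on day 14 and 0.933 on day 7, and that of the genes lower -1.28 and -0.44, the day 14 values being those that chose the genes.

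Several genes were called on both days. *Sfrp2* had a log2 fold change of 3.52 on day 14 and 4.04 on day 7, *Muc13* 2.46 and 3.29, *Gli2* 2.45 and 3.23, *Wnt4* 2.56 and 2.40, and *Fbln2* -1.43 and -1.15. Others were called on day 14 alone: *Cftr* was at 2.14 on day 14 and 0.28 on day 7 (adjusted p = 0.542 on day 7), *Pgc* at 3.62 and 0.32, *Pgf* at -2.01 and -0.28, and *Wnt5a* at -1.19 and -0.066. A call on 1 day and not the other is not a difference between days. In a direct test of the interaction of day and label, 1 gene had a higher (0.00663%) and 8 a lower (0.053%) log2 fold change on day 14 than on day 7, or 0.0596% of 15093 genes, and none of *Cftr*, *Pgc*, *Pgf* and *Wnt5a* was among them. *Tubb3* was, with a log2 fold change of -1.10 on day 14 and -3.18 on day 7, a difference of 2.09 ± 0.26 (adjusted p = 0.0307). No gene was called in that direction without mouse 1 or 2 of either label of day 14. Of the 116 called genes chosen for naming on day 14, *Smad4* included, 115 were tested on day 7, 105 had the same sign and 25 were called, as the plot of both days shows.

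**Figure D5:**
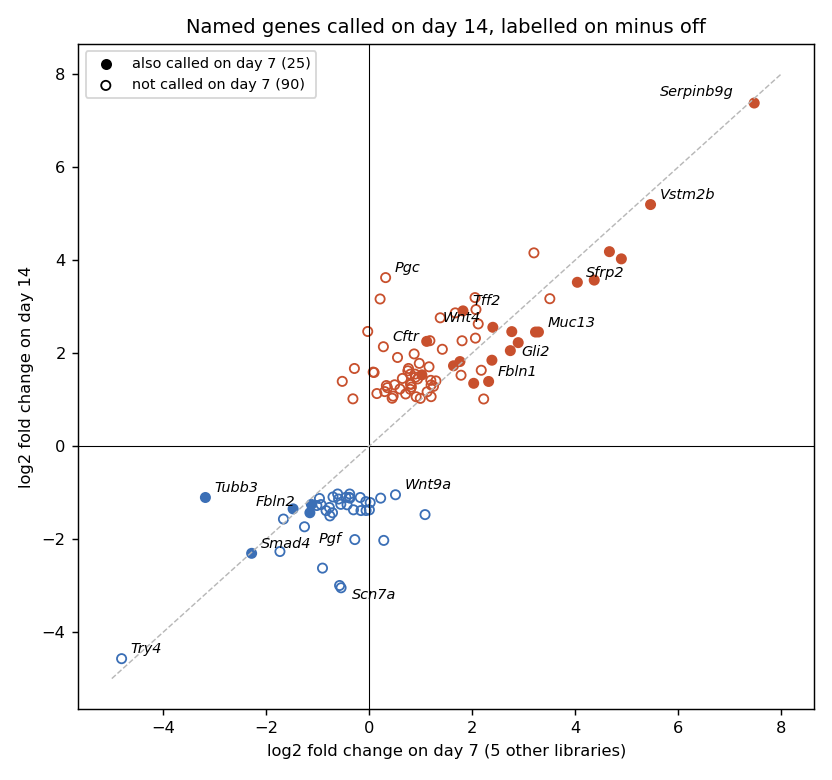
Log2 fold change of labelled on minus labelled off on day 14 (y) against day 7 (x) in primary tumors for the 115 named genes called on day 14 and tested on day 7, red for higher and blue for lower on day 14, filled where also called on day 7 (25) and with a dashed line of equal values. Of these, 105 lie in the quadrants of the same sign, and *Tubb3* lies to the left of the line.

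In metastases of day 14, from other libraries, the same comparison called 0 genes in the liver, with 689 higher and 758 lower at an unadjusted p under 0.05 in edgeR, and 4 in the lungs (0.0271%), *Gli2*, *Pax9* and *Slc29a3* higher (0.0203%) and *Smad4* lower (0.00678%), each also called in the primary tumor on day 14. Their biological coefficients of variation were 0.416 and 0.332, well above the 0.142 of the primary tumor, and a difference between organs was not tested. Side by side, the log2 fold changes in the primary tumor, liver and lungs were 2.45, 5.95 and 5.51 for *Gli2*, 1.82, 2.18 and 1.86 for *Slc29a3*, and 2.46, 2.65 and 1.61 for *Muc13*. For genes lower they were -1.43, -2.54 and -1.53 for *Fbln2*, -1.25, -1.83 and -0.72 for *Fn1*, and -1.13, -3.56 and -1.81 for *Has2*. *Vsig1* was at 1.91 in the primary tumor, -0.12 in the liver and 0.033 in the lungs, and *Acta2* at -1.50, -0.61 and 0.0065.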

How the data were processed

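RNA was sequenced from mKate2-positive cells sorted from mouse primary tumors and metastases. The authors deposited raw read counts per gene for 35 libraries, made by them with Trimmomatic 0.36, STAR 2.5.3a and featureCounts 1.6.3 from 75-base reads on GRCm38/mm10 with Ensembl genes; a strand setting of the counting is not given in the sources used here. The deposited transcript length, another column of the authors, was used for levels per kilobase. Groups follow the labels. Of 53465 genes, those with at least 10 counts by filterByExpr (15 in total) were tested with edgeR 4.0.16 (R 4.3.3), by its robust quasi-likelihood test on TMM-scaled counts over the 5 libraries with no covariate, and p-values were adjusted by Benjamini-Hochberg. SE is the log2 fold change divided by the root of F. Differences between days were tested as an interaction over the 10 primary tumor libraries.

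Named were *Smad4*, the 12 genes higher and 12 lower of lowest adjusted p and the 6 of largest fold in each direction with a mean of at least 5 CPM, leaving out predicted gene models, every called member of the gene lists, and genes the study names. Results for some genes are not reported here. Other genes given with values were chosen after their values were seen. The members and lists were chosen with earlier results of these data known. Alternatives were DESeq2 1.42.0, its size factors, other filters, no fold threshold, no robust estimates, a mouse number block, thinned libraries, 1 fit of all 12 groups and each library left out. The code was tested on simulated data. No 2 libraries were identical. Totals of 12200163 to 32195795 counts set the counting error, which the floors of 3 counts cover alone.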

Additional observations from a re-analysis of the deposited data

Results flagged for a closer look

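*Tubb3*, a neuronal tubulin, had a difference between labelled on and labelled off that itself differed between days, by the interaction test over the 10 primary tumor libraries. Its log2 fold change was -1.10 on day 14 and -3.18 on day 7, and day 14 minus day 7 was 2.094 ± 0.2594 (SE, edgeR's quasi-likelihood test, adjusted p = 0.0307). The level was lower in each library labelled on than in each labelled off on day 14. The same test called 8 genes in the other direction, among them *Hc*, complement C5, which was called higher on day 14 with a log2 fold change of 1.69 and reached 4.62 on day 7, and *Il10*, with -0.0087 and 3.10. *Hc* and *Il10* were chosen after their values were seen. What sets these differences was not tested.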

How the results depend on the processing

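*Smad4* was lower under every alternative. The counts of 482 genes higher and 179 lower stayed within 1.5 times under the other filters, DESeq2 (606 and 217, of which 474 and 177 were among those called in edgeR), DESeq2 size factors, no robust estimates and thinned libraries. By adjusted p alone they were 940 and 897, and in 1 fit of all 12 groups 15 and 1. Without 1 library they ranged from 137 to 739 and from 65 to 253, lowest without a library labelled off and highest without mouse 1 labelled on. The mouse numbers do not pair the samples by any label (correlation of deviations 0.0643 over 2 pairs). The block on mouse number gave 376 and 177. For the difference between days, 1 higher and 8 lower, DESeq2 gave 51 and 156, no filter on low counts 207 and 393 and the block 0 and 1, and leaving out 1 library of day 14 gave 0 to 1 and 0 to 5. The causes were not tested beyond the smaller number of samples when a library is left out.

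Of 115 called genes chosen for naming besides *Smad4*, 0 changed sign under 13 alternatives, 87 stayed called outside the 12-group fit and the fits without a library, and *Oprd1*, *Pax9*, *Slc29a3*, *Vstm2b* and *Wnt4* stayed called in all that could be run. Without 1 library, 3 uncalled genes changed sign: *Il11* ranged from -0.772 to 0.274, *Col6a1* from -0.339 to 0.0539 and *Ccbe1* from -0.375 to 0.0665, each highest without mouse 1 labelled on. Depth moved with the label, and of the 482 and 179 genes 382 and 155 were also called with labelled off thinned to the depth of labelled on. Doxycycline moved with the label too, and its effect and that of *Smad4* cannot be told apart.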

Other observations

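Among genes that were not called, 4 known from steroid metabolism varied widely among the libraries labelled on. *Cyp11a1* was at 0.329 and 0.0968 CPM in labelled off and 0.55, 15.2 and 50.6 CPM in labelled on, and *Hsd3b1*, which forms progesterone, at 0 and 0 CPM in labelled off and 0, 10.7 and 36.4 CPM in labelled on. *Star*, which carries cholesterol into mitochondria, was at 2.78 and 2.42 CPM in labelled off and 2.88, 13.1 and 33.2 CPM in labelled on, and *Akr1c18*, which reduces progesterone, at 0.0732 and 0.29 CPM in labelled off and 0.481, 4.58 and 12.2 CPM in labelled on. In each, mouse 3 labelled on had the highest level and mouse 1 labelled on was near the libraries labelled off, and none was called (adjusted p = 0.173, 0.26, 0.229 and 0.136). These genes were chosen after their values were seen.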
